A study of Mus musculus with 15 samples.

Results

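The 9 genes described here encode transporters, enzymes and 1 transcription factor of renal acid-base handling, most of them known from intercalated cells of the collecting duct: Slc4a1, Slc26a4, Slc4a9, Foxi1, Car2, Car4, Slc4a4, Slc9a3 and Rhcg. They were chosen by name, with earlier results of these data known, as 9 of the 33058 genes in the table of linear isoforms. The value of a gene in a mouse was the sum of FPKM (fragments mapped to a transcript, scaled to its length and to the mapped fragments of the library) over the isoforms that match, are contained in, share a splice junction with or overlap an annotated transcript of the gene. The 9 genes had 56 such isoforms, 27 annotated and 29 assembled by StringTie from the reads of these libraries.

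RNA was sequenced from kidneys of 15 male C57BL/6 mice, 5 at 3 months of age, 5 at 12 months and 5 at 24 months. The labels name no transgene and no treatment, and all mice were kept at 25 °C with standard chow and tap water. Each library came from 1 numbered mouse, so the spread within an age is a spread between animals. The design asks which kidney RNAs differ between ages.

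Intercalated cells secrete acid or base into the urine. Type A cells are known to secrete protons through an apical proton pump and to return bicarbonate to the blood through the exchanger encoded by Slc4a1, whereas type B cells secrete bicarbonate through pendrin, encoded by Slc26a4, beside the basolateral transporter encoded by Slc4a9. Most filtered bicarbonate is reclaimed earlier, in the proximal tubule, by Slc9a3, Slc4a4 and the carbonic anhydrases encoded by Car2 and Car4, and Rhcg carries ammonia across collecting duct cells.

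The libraries held 5.03 to 6.13 Gb of aligned sequence at 3 months, 5.84 to 8.03 Gb at 12 months and 6.07 to 7.33 Gb at 24 months. The tissue label was checked on marker lists. All 21 further intercalated cell genes looked for were in the table, with 1 of them at 0 in some mice, and their FPKM summed to 200 to 278 at 3 months, 184 to 232 at 12 months and 179 to 253 at 24 months. The 10 proximal tubule markers summed to 2372 to 3226 FPKM over all mice, and none was at 0 in any mouse.

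Every gene was detected in every mouse. Over the 15 mice, Slc4a4, the basolateral sodium-bicarbonate cotransporter, had the highest level of the 9, with a mean of 182 FPKM, which lay at the 99.7th percentile of genes above 0. Car2, the cytosolic carbonic anhydrase, followed at 69.1 FPKM, and Car4, the membrane-anchored one, at 58.3 FPKM. Slc9a3, the apical sodium-proton exchanger NHE3, averaged 33.4 FPKM, and Rhcg averaged 23.6 FPKM. Last came Slc4a9 at 14.6 FPKM, Slc26a4 at 11.7 FPKM, Slc4a1 at 6.60 FPKM and Foxi1, the forkhead factor needed for intercalated cell identity, at 2.01 FPKM, the 66.6th percentile.

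Neighbours in this order were compared within each mouse, as FPKM is per length of transcript. Slc4a4 exceeded Car2 in 15 of 15 mice with no overlap of their ranges. Car2 exceeded Car4 in 11 of 15 mice, Slc9a3 exceeded Rhcg in 14 and Slc4a9 exceeded Slc26a4 in 13, so these neighbours did not keep their order in every animal. The other 4 neighbours kept their order in all 15 mice, although their ranges overlapped between animals. The spread between mice also differed by gene: Slc4a4 varied least, with a coefficient of variation of 12.2%, and Foxi1 most, with 85.5% and a highest value 10.6 times its lowest.

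**Figure D1:**
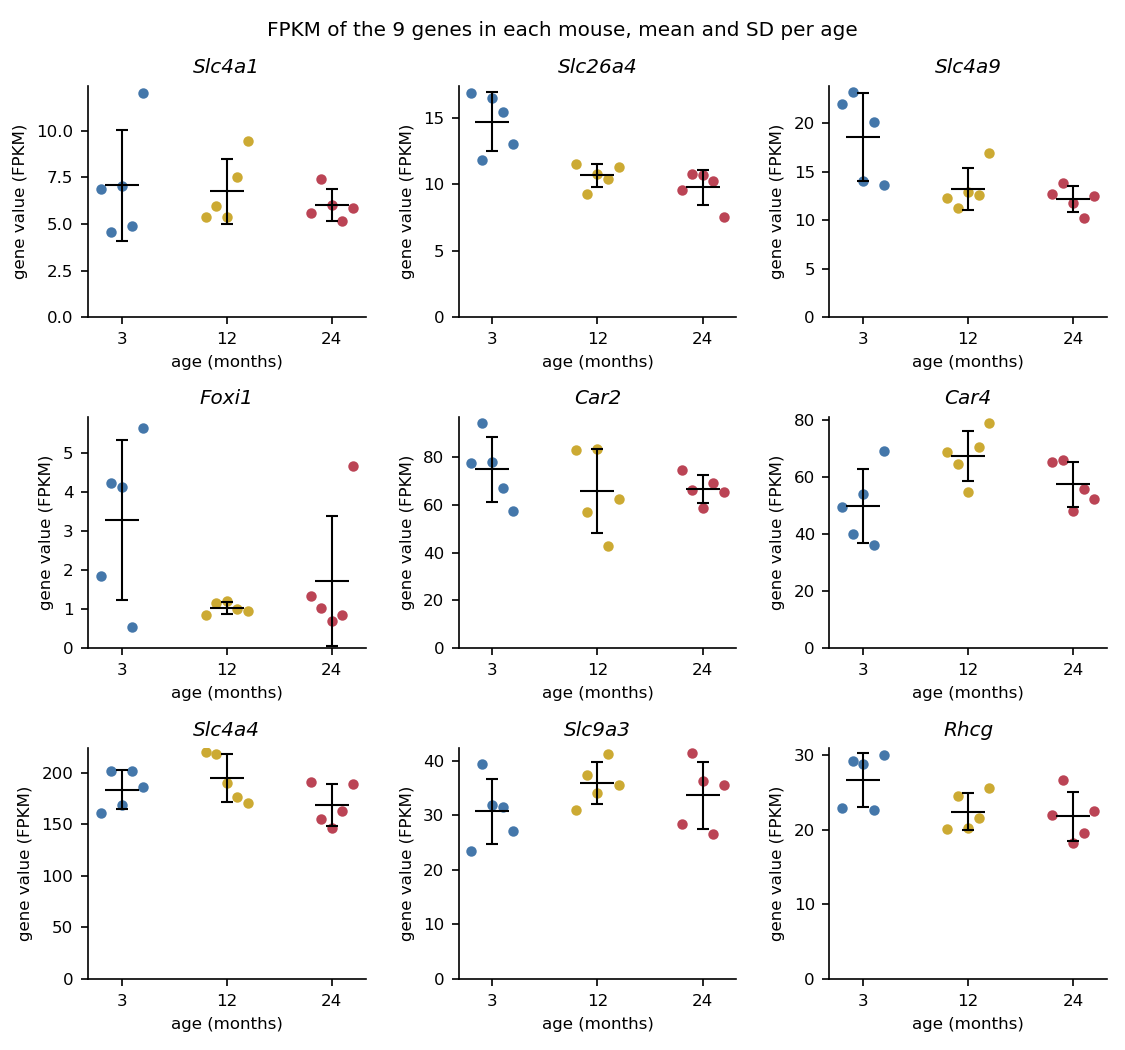
Gene value in FPKM (vertical axes, starting at 0) of each of the 9 genes against age in months (horizontal axes), with 1 point per mouse, a black dash for the mean of 5 mice and bars for the SD. Slc26a4 lies between 11.8 and 16.9 FPKM at 3 months and at or below 11.6 FPKM in every mouse of 12 or 24 months, while the other genes overlap between ages.

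No gene of the 9 passed an adjusted p of 0.05 between any pair of ages in limma, which called 1.22% of 31755 genes between 24 and 3 months, 0.25% of 31637 genes between 12 and 3 months and 0.0031% of 32282 genes between 24 and 12 months. At an unadjusted p under 0.05, 3 of the 9 were lower and 0 higher at 24 than at 3 months, where 3.47% of all genes were lower and 11.4% higher. Between 12 and 3 months 3 were lower and 1 higher, where 2.9% of all genes were lower and 11.4% higher. Between 24 and 12 months 0 of 9 passed, where 6.43% of all genes did. The 9 were chosen with earlier results of these data known, so these counts are a description. The median log2 difference of the 9 genes was -0.15, -0.21 and -0.10 in these comparisons, and that of all genes was 0.02, 0.02 and 0.00. The first and second comparisons use the same 3-month-old mice, so they are not independent. In bulk kidney RNA, fewer cells of a type and less RNA per cell cannot be told apart.

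**Figure D2:**
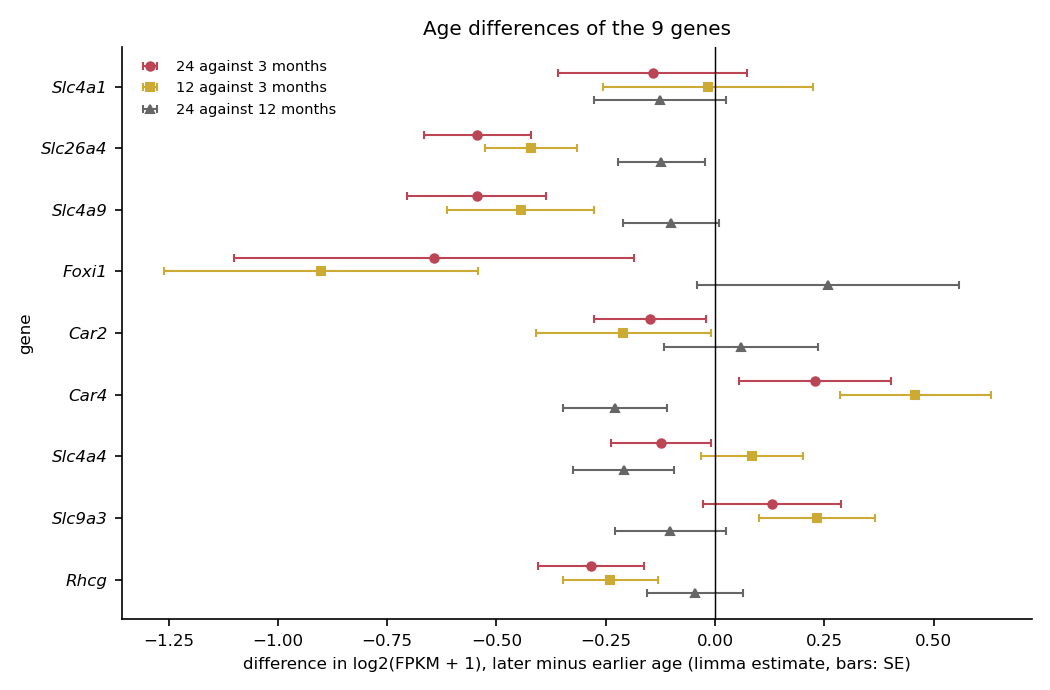
Difference in log2(FPKM + 1) between ages for each of the 9 genes (horizontal axis, later minus earlier age), with the limma estimate as a symbol and its SE as a bar. Slc26a4 and Slc4a9 lie at -0.54 and -0.55 for 24 against 3 months and at -0.42 and -0.44 for 12 against 3 months, and no estimate passed an adjusted p of 0.05.

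Slc26a4, the pendrin gene of base-secreting cells, had the smallest p of the 9. It lies on chromosome 12 (chr12:31519827-31559974, minus strand, GRCm38). It measured 16.9, 11.8, 16.5, 15.4 and 13.0 FPKM in the 3-month-old mice, 11.6, 9.29, 10.8, 10.4 and 11.3 FPKM at 12 months and 9.55, 10.8, 10.7, 10.3 and 7.57 FPKM at 24 months. All 10 older mice lay below all 5 young mice, the closest pair being 11.6 and 11.8 FPKM. The means were 14.7 ± 2.21, 10.7 ± 0.891 and 9.77 ± 1.32 FPKM (SD, n = 5 each), so that the level at 24 months was 33.7% below that at 3 months. The log2 difference was -0.54 (SE 0.12) between 24 and 3 months, with a limma p of 0.00136 and an adjusted p of 0.0696, and the exact permutation p was 0.00794, the smallest that 252 assignments of 5 against 5 mice allow. Between 12 and 3 months it was -0.42 (SE 0.11), with an adjusted limma p of 0.119 and the same exact permutation p. Such a separation with every later mouse lower was found for 0.91% of all genes between 24 and 3 months and for 0.667% between 12 and 3 months. The difference was -0.12 between 24 and 12 months (SE 0.10, exact permutation p = 0.27). With all 15 mice in 1 limma fit the adjusted p for 24 against 3 months was 0.0229, and over all 17 alternatives it ranged from 0.0229 to 0.145.

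Both main isoforms of Slc26a4 had lower means in older mice. The annotated full-length ENSMUST00000001253, with 21 exons, carried 78.1% of the gene value and averaged 11.4, 8.49 and 7.55 FPKM at 3, 12 and 24 months, a log2 difference of -0.53 between 24 and 3 months (adjusted p = 0.368). The assembled MSTRG.7847.3, with 3 exons near the start of the gene, averaged 2.86, 2.01 and 2.08 FPKM (-0.33, adjusted p = 0.59). The share of the leading isoform was 77.3% at 3 months and 77.3% at 24 months, so the make-up of the gene value differed by less than its spread (exact permutation p = 0.976). The 6-exon circular RNA of Slc26a4, circRNA1386, averaged 675 ± 132 estimated counts at 3 months, 595 ± 88.8 at 12 months and 547 ± 72.6 at 24 months (SD, n = 5). Its edgeR log2 fold change was -0.46 (SE 0.15) between 24 and 3 months, with an adjusted p of 0.0571, and the groups overlapped.

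Slc4a9, the bicarbonate transporter of the basolateral side of type B cells (chr18:36528088-36544648, plus strand), measured 22.0, 23.2, 14.0, 20.1 and 13.6 FPKM at 3 months, 12.2, 11.3, 12.9, 12.5 and 16.9 FPKM at 12 months and 12.7, 13.8, 11.7, 10.2 and 12.4 FPKM at 24 months. 3 of the young mice lay far above all others, and the other 2 lay within the range of the older mice. The log2 difference was -0.55 (SE 0.16) between 24 and 3 months, with a limma p of 0.00683, an adjusted p of 0.142 and an exact permutation p of 0.0159. It was -0.44 (SE 0.17) between 12 and 3 months, with a limma p of 0.0259 and an adjusted p of 0.274. It was -0.10 between 24 and 12 months (SE 0.11, exact permutation p = 0.46). Assembled isoforms carried 96.3% of the gene value, and the only annotated isoform measured at most 1.62 FPKM. With annotated transcripts alone the difference between 24 and 3 months was 0.01.

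The summed FPKM of 8 markers of principal cells, the neighbours of intercalated cells in the collecting duct, moved with Slc4a9. The 8 markers, among them Aqp2 and Hsd11b2, summed to 108 to 261 FPKM at 3 months, 86.0 to 123 FPKM at 12 months and 84.9 to 124 FPKM at 24 months. The sum was lower at 24 than at 3 months (exact permutation p = 0.0397) and at 12 than at 3 months (exact permutation p = 0.0238), and none of the 8 was at 0 in any mouse. At an unadjusted limma p under 0.05, 1 of the 8 was lower and 0 higher in each of these comparisons, where 3.47% and 2.9% of all genes were lower. Aqp2, the water channel of principal cells, and Hsd11b2 made up most of the difference in the sum between 24 and 3 months, with means of 69.6 and 33.7 FPKM for Aqp2 at 3 and 24 months and of 37.1 and 16.6 FPKM for Hsd11b2. The log2 differences of Aqp4 and Fxyd4 were 0.22 and 0.05, so the 8 markers did not all share a direction. Among young mice Scnn1b was highest in 3M replicate 9, at 14.5 FPKM, where Slc4a9 was lowest, at 13.6 FPKM. The relation below is therefore one of the sum and not of each marker. Over the 15 mice the sum and Slc4a9 gave a Pearson r of 0.89 (permutation p = 7e-05, adjusted p = 0.00063 over 9 genes) and a Spearman rho of 0.68 (permutation p = 0.00763). Without the 2 mice farthest from the median of the sum, r was 0.78, and after subtracting the mean of each age it was 0.82 (permutation p = 0.00268). The part of the principal cell markers in the result on Slc4a9 was not tested. With Slc26a4 the same sum gave an r of 0.46 (permutation p = 0.0802, adjusted p = 0.241) and an r of -0.26 with ages centred (permutation p = 0.46); rho was 0.58 (permutation p = 0.0264). The sum and Car4 gave an r of -0.64 (permutation p = 0.00942, adjusted p = 0.0424), a rho of -0.45 (permutation p = 0.0948) and an r of -0.15 without the 2 mice, so that relation rested on them. The other 6 genes gave adjusted p values of 0.312 or more with the sum.

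Foxi1 (chr11:34204338-34208089, minus strand) had a single isoform, ENSMUST00000060271. It measured 1.86, 4.24, 4.12, 0.530 and 5.64 FPKM at 3 months, 0.839, 1.15, 1.2, 1.01 and 0.957 FPKM at 12 months and 1.34, 1.03, 0.684, 0.858 and 4.66 FPKM at 24 months. The high values were those of 3 young mice and of 1 mouse of 24 months, and the lowest value of all was also that of a young mouse. Mice of 12 months differed from young mice by -0.90 (SE 0.36) on the log2 scale, with a limma p of 0.0318, an adjusted p of 0.297 and an exact permutation p of 0.0635. Between 24 and 3 months it was -0.64 (SE 0.46, exact permutation p = 0.23). It was 0.26 between 24 and 12 months (SE 0.30, exact permutation p = 0.643), and -0.05 without the mouse at 4.66 FPKM.

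Slc4a1 (chr11:102348820-102365280, minus strand) encodes the chloride-bicarbonate exchanger AE1, which red blood cells also make; in type A cells transcription is known to begin at a start further downstream, which gives a shorter protein. It measured 6.88, 4.55, 7.02, 4.87 and 12.0 FPKM at 3 months, 5.38, 5.97, 5.37, 7.54 and 9.45 FPKM at 12 months and 5.57, 7.42, 6.01, 5.14 and 5.87 FPKM at 24 months. The ages overlapped throughout. The log2 difference was -0.14 (SE 0.22, exact permutation p = 0.627) between 24 and 3 months, -0.02 (SE 0.24, exact permutation p = 0.96) between 12 and 3 months and -0.13 (SE 0.15, exact permutation p = 0.476) between 24 and 12 months, and the sign of the first 2 changed with single mice left out.

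The 5 isoforms of Slc4a1 differed in their start. The 3 isoforms with the downstream start, led by the assembled MSTRG.7005.1 and MSTRG.7005.2 with 18 exons each, carried a median of 99.9% of the gene value and formed most of it in 14 of 15 mice. The annotated ENSMUST00000006749, which begins at the upstream start, was the whole value of 4.55 FPKM in 3M replicate 6. It measured 5.02 FPKM in 3M replicate 9, 1.70 FPKM in 12M replicate 19 and 1.16 FPKM in 24M replicate 33, and at most 0.0277 FPKM in the other mice. The 10 red cell markers summed to 518 FPKM in 3M replicate 6, near the low end of the range of 261 to 1391 FPKM over the 15 mice, and to 1391 FPKM in 3M replicate 9, the highest. At an unadjusted limma p under 0.05, 1 of the 10 markers was higher and 0 lower at 24 and at 12 than at 3 months. Of all genes 11.4% were higher in both comparisons, and 3.47% and 2.9% were lower. None of the 10 was at 0 in all mice. The sum of the 10 averaged 943, 823 and 649 FPKM at 3, 12 and 24 months, with overlap (exact permutation p = 0.286 between 24 and 3 months). Their sum and the gene value of Slc4a1 gave an r of 0.57 over the 15 mice (permutation p = 0.027), a rho of 0.65 (permutation p = 0.0101) and an r of 0.57 without the 2 mice farthest from the median. The part of blood in the values of Slc4a1 was not tested.

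Rhcg (chr7:79592388-79617657, minus strand), the ammonia channel of connecting tubule and collecting duct cells, measured 22.9, 29.1, 28.8, 22.7 and 30.1 FPKM at 3 months, 20.1, 24.5, 20.3, 21.5 and 25.6 FPKM at 12 months and 22.0, 26.7, 18.2, 19.5 and 22.5 FPKM at 24 months. 3 young mice lay above all 10 older ones, and the other 2 lay within their range. Mice of 24 months differed from young mice by -0.28 (SE 0.12) on the log2 scale, with a limma p of 0.0416, an adjusted p of 0.308 and an exact permutation p of 0.0476. It was -0.24 between 12 and 3 months (SE 0.11, exact permutation p = 0.0714), and between 24 and 12 months -0.04 (SE 0.11, exact permutation p = 0.706).

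The leading isoform of Rhcg had larger log2 differences than the sum, which did not pass the adjustment. Its annotated full-length isoform, ENSMUST00000032766 with 11 exons, measured 12.8, 11.3, 12.6, 6.94 and 16.7 FPKM at 3 months, 2.28, 4.66, 5.56, 5.50 and 7.14 FPKM at 12 months and 7.51, 10.0, 2.34, 5.23 and 5.97 FPKM at 24 months. All but 1 of the young mice lay above every older mouse. The means were 12.1 ± 3.49, 5.03 ± 1.78 and 6.22 ± 2.85 FPKM (SD, n = 5 each). The log2 difference was -1.13 between 12 and 3 months (adjusted p = 0.406) and -0.91 between 24 and 3 months (adjusted p = 0.518). The isoform carried 44.9% ± 10.9 of the gene value at 3 months, 22.2% ± 7.06 at 12 months and 27.6% ± 9.55 at 24 months. The exact permutation p of the share was 0.00794 between 12 and 3 months, with an adjusted p of 0.0952 over the 24 shares compared, and 0.0317 between 24 and 3 months, with an adjusted p of 0.152. The 3-exon assembled isoform MSTRG.33299.5 averaged 4.55, 6.03 and 6.13 FPKM at 3, 12 and 24 months (adjusted p = 0.72 between 24 and 3 months). StringTie divides reads between overlapping isoforms, so isoforms of 1 gene are not independent of each other. The 2 intronic circular RNAs of Rhcg differ by 1 base at an end and averaged 39.6 counts at 3 months and 44.4 at 24 months (edgeR log2 fold change -0.01 each).

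**Figure D3:**
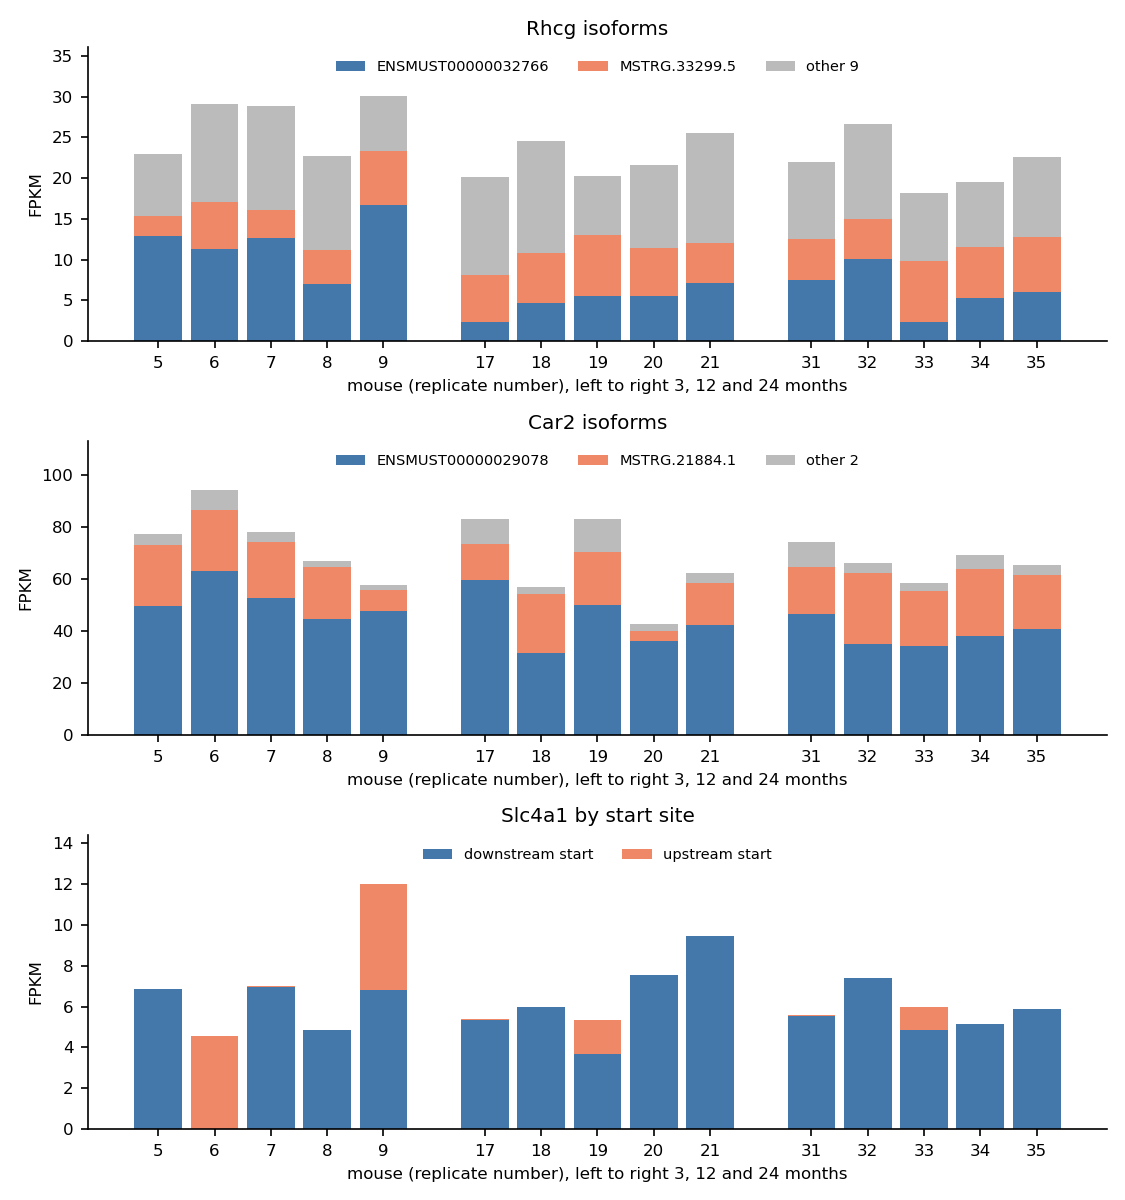
FPKM of isoforms stacked to the gene value (vertical axes, starting at 0) in each mouse (horizontal axes, replicate numbers, the 3 blocks being 3, 12 and 24 months), for Rhcg, Car2 and, by start site, Slc4a1. The blue part of Rhcg spans 6.94 to 16.7 FPKM in the first block and 2.28 to 10.0 FPKM in the others, and the orange part of Slc4a1 is the whole value in 3M replicate 6.

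In the leading isoforms of all 8 genes with more than 1 isoform, 5 of the 24 shares compared had an exact permutation p under 0.05 and 0 an adjusted p under 0.05. Over single isoforms, limma gave an unadjusted p under 0.05 for 9 of the 56 isoforms between 24 and 3 months (7 lower, 2 higher), where 7.9% of 124719 transcripts had one (2.47% lower, 5.43% higher), and 0 passed the adjustment, which called 0.0192% of them. Between 12 and 3 months 9 of the 56 had one (6 lower, 3 higher), where 7.46% of transcripts had one (2.5% lower, 4.96% higher) and 0.00481% passed the adjustment. Between 24 and 12 months 1 of the 56 had one and was lower, where 4.47% of transcripts had one (2.17% lower) and 0.00559% passed. The smallest adjusted p was 0.368, 0.406 and 0.838 in these comparisons.

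The 250 bases before the annotated start are shown for the 3 genes known from the collecting duct that had a RefSeq promoter of GRCm38.p6 at hand, since Foxi1 itself encodes a forkhead factor. Capitals mark matches, on either strand, to the forkhead core TGTTTNC, the TATA box TATAAA, the CCAAT box CCAAT and the GC box GGGCGG; no match overlaps another. The windows are chr12:31559985-31560234 for Slc26a4, chr7:79617658-79617907 for Rhcg and chr11:34208090-34208339 for Foxi1, all on the minus strand and written 5′ to 3′.
Slc26a4: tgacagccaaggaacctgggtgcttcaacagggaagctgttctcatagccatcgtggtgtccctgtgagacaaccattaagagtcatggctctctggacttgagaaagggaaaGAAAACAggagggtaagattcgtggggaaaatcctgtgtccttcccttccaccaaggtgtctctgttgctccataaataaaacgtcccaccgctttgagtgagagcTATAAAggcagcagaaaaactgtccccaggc
Rhcg: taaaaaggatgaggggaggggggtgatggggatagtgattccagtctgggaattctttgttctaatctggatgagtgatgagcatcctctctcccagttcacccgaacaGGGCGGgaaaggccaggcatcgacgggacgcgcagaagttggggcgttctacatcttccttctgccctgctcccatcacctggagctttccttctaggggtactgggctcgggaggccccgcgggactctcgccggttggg
Foxi1: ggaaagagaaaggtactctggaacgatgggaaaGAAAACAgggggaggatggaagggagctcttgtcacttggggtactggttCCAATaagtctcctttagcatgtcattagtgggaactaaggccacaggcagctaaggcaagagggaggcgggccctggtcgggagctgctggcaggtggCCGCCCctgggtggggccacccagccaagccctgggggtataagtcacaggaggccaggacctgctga
The forkhead core was found in Slc26a4 at 137 bases before the start, in Foxi1 at 217 bases and in the Slc9a3 promoter at 97 bases, that is in 3 of the 7 promoters of the 6 genes matched, and in 17.8% of all 32851 promoters. The TATA box was found in Slc26a4 at 31 bases and in 12.4% of all promoters. The GC box was found in Rhcg at 141 bases and in Foxi1 at 68 bases, in 4 of the 7 promoters and in 32.7% of all. The CCAAT box was found in Foxi1 at 167 bases, in 2 of the 7 promoters and in 33.8% of all. A match of letters says nothing of binding. The GC content was 49.6% in Slc26a4, 58.4% in Rhcg and 58.8% in Foxi1, against a median of 52.4% over all promoters. Slc4a1, Slc4a9 and Car2 had no entry.

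Car2 (chr3:14886232-14900786, plus strand), which makes bicarbonate and protons from carbon dioxide inside proximal tubule and intercalated cells, measured 77.4, 94.3, 78.1, 66.9 and 57.6 FPKM at 3 months, 83.1, 57.1, 83.3, 42.7 and 62.3 FPKM at 12 months and 74.4, 66.2, 58.5, 69.1 and 65.3 FPKM at 24 months. The ages overlapped, and the log2 difference was -0.15 (SE 0.13, exact permutation p = 0.286) between 24 and 3 months, -0.21 (SE 0.20, exact permutation p = 0.349) between 12 and 3 months and 0.06 (SE 0.18, exact permutation p = 0.77) between 24 and 12 months. The annotated leading isoform, ENSMUST00000029078, averaged 51.6 ± 7.16, 43.9 ± 11.2 and 39.0 ± 4.97 FPKM at 3, 12 and 24 months (-0.39 between 24 and 3 months, adjusted p = 0.524). Its share was 69.7% ± 7.48 at 3 months and 58.4% ± 4.37 at 24 months (exact permutation p = 0.00794, adjusted p = 0.0952). The assembled 8-exon isoform MSTRG.21884.1, which begins further upstream, averaged 19.2 and 22.5 FPKM at these ages (adjusted p = 0.727).

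Car4 (chr11:84957786-84966044, plus strand), anchored on the outer face of proximal tubule cells, was the 1 gene of the 9 with a higher value at an unadjusted p under 0.05. It measured 49.6, 40.1, 54.0, 36.1 and 69.1 FPKM at 3 months, 68.8, 64.6, 54.9, 70.5 and 79.0 FPKM at 12 months and 65.2, 66.1, 48.1, 55.8 and 52.3 FPKM at 24 months. 4 of the 5 young mice lay below all mice of 12 months, and 3M replicate 9 lay among them. Mice of 12 months differed from young mice by 0.46 (SE 0.17) on the log2 scale, with a limma p of 0.0244, an adjusted p of 0.269 and an exact permutation p of 0.0397. It was 0.23 (SE 0.17, exact permutation p = 0.262) between 24 and 3 months and -0.23 (SE 0.12, exact permutation p = 0.0873) between 24 and 12 months. The leading isoform ENSMUST00000103194 carried 92.6% of the value at 3 months, 96.6% at 12 months and 94.3% at 24 months.

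Slc9a3 (chr13:74121203-74169952, plus strand), which encodes NHE3, overlaps Exoc3 on the opposite strand at its end, and whether the counting used strand is not given in the sources used here. It measured 23.5, 39.4, 31.8, 31.5 and 27.1 FPKM at 3 months, 31, 37.3, 34.1, 41.3 and 35.6 FPKM at 12 months and 28.4, 41.4, 36.2, 26.6 and 35.6 FPKM at 24 months. The ages overlapped, and the log2 difference was 0.23 (SE 0.13, exact permutation p = 0.143) between 12 and 3 months, 0.13 (SE 0.16, exact permutation p = 0.421) between 24 and 3 months and -0.10 (SE 0.13, exact permutation p = 0.468) between 24 and 12 months. Its assembled isoform MSTRG.10096.3, 34711 bases long with 10 exons, averaged 3.52, 5.67 and 5.72 FPKM (0.59 between 24 and 3 months, adjusted p = 0.544). The annotated ENSMUST00000036208 averaged 6.11, 10.3 and 13.7 FPKM with SDs of 4.34, 10.9 and 10.1 FPKM, and the leading MSTRG.10096.1 averaged 18.8, 16.9 and 11.6 FPKM with SDs of 9.69, 10.5 and 6.52 FPKM. The 1-exon circular RNA of Slc9a3 had an edgeR log2 fold change of 0.06 between 24 and 3 months (adjusted p = 0.869).

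Slc4a4 (chr5:88886818-89246868, plus strand) carries bicarbonate from proximal tubule cells to the blood. Its sum measured 160.4, 201, 168, 202 and 186 FPKM at 3 months, 220.2, 218, 189.9, 176 and 171 FPKM at 12 months and 191, 155, 146, 163 and 189 FPKM at 24 months. The ages overlapped, and the log2 difference was -0.12 (SE 0.12, exact permutation p = 0.238) between 24 and 3 months, 0.08 (SE 0.12, exact permutation p = 0.397) between 12 and 3 months and -0.21 (SE 0.12, exact permutation p = 0.0952) between 24 and 12 months. The kidney form of this transporter is known to begin at an internal start. The 3 isoforms with the upstream start carried 0.0166% to 1.11% of the gene value over the 15 mice. The 8 isoforms that begin close together at the downstream start carried 45.4% in 3M replicate 8 and 75.9% to 94.1% in the other mice. MSTRG.27862.6, which begins between these starts and nearer to the downstream one, made up 82.0 of the 202 FPKM in 3M replicate 8, and with it the downstream share was 79.8% to 94.1%. The annotated ENSMUST00000130041, with 22 exons, led with 21.6% of the value, and its mean was 39.3 FPKM over the 15 mice, between 7.71 and 96.9 FPKM in single mice.

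Single isoforms of Slc4a4 differed from the sum in their values. The 5-exon ENSMUST00000134303 averaged 5.84, 1.89 and 2.14 FPKM at 3, 12 and 24 months (-1.18 between 24 and 3 months, adjusted p = 0.476). The 3-exon ENSMUST00000113216 averaged 11, 7.88 and 8.32 FPKM (-0.36, adjusted p = 0.624). MSTRG.27862.15, assembled with 2 exons over 31674 bases and so covering intronic sequence, averaged 15.3, 8.89 and 8.92 FPKM (-0.65, adjusted p = 0.616). The 23-exon MSTRG.27862.9 averaged 8.96, 17.9 and 19.96 FPKM (1.15, adjusted p = 0.489). The mean of MSTRG.27862.6 at 3 months, 18.9 FPKM, rested on 3M replicate 8 at 82.0 FPKM. A further 21 assembled transcripts within introns of Slc4a4, 20 of them with a single exon, were not part of the gene value, and they summed to 8.44 ± 3.57, 6.61 ± 4.2 and 3.70 ± 2.35 FPKM at 3, 12 and 24 months (exact permutation p = 0.0794 between 24 and 3 months).

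The table of circular RNAs held 55 circles of these genes, of which 50 were of Slc4a4, 48 from exons and 2 from introns. They spanned 0.158 to 161 kb and 1 to 14 exons, with mean estimated counts of 32.7 to 6725 over the 15 mice. Between 24 and 3 months, edgeR called 45 of the 50 lower and 0 higher at an adjusted p under 0.05, where 6.61% of all circular RNAs tested were called lower and 13.3% called in all. The median log2 fold change of the 50 was -0.62, with a range from -1.16 to -0.06. Between 12 and 3 months, with the same young mice, 37 of the 50 were called lower and 0 higher, where 3.2% were called lower, with a median of -0.44. That second count was 1 without 3M replicate 8 and 2 without 12M replicate 20, and it was 13 without 12M replicate 18, 19 or 21, 18 without 12M replicate 17 and 21 without 3M replicate 6. Between 24 and 12 months edgeR called 0 of the 50, where 0.738% of all circular RNAs were called, with 13 at an unadjusted p under 0.05, all lower, and DESeq2 called 0. The largest, circRNA751 with 14 exons, measured 7622, 9542, 7476, 9531 and 6745 counts at 3 months, 7536, 6314, 8230, 4696 and 4681 counts at 12 months and 5551, 4792, 5023, 6666 and 6474 counts at 24 months. These counts are not scaled to library size, and the libraries held a median of 6.04 Gb at 3 months, 7.17 Gb at 12 months and 7.00 Gb at 24 months. In the unscaled counts all mice of 24 months lay below all young mice, and those of 12 months overlapped both. The edgeR log2 fold change of circRNA751 was -0.68 (SE 0.11, adjusted p = 0.00209) between 24 and 3 months. In the unscaled counts of 15 of the 50 circles all mice of 24 months lay below all young mice, and the other circles overlapped. Many of these circles are nested, so the 15 are not separate results. The share of all circular RNAs that separated in this way was not counted, so whether 15 of 50 is unusual is not known.

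The differences of the Slc4a4 circles went with their kind. Of the 5 circles of a single exon 1 was called lower between 24 and 3 months, with a median log2 fold change of -0.09, where all 524 single-exon circles had a median of -0.07 and 5.53% were called lower. Of the 43 circles of 2 or more exons 42 were called lower, with a median of -0.62, where all 10284 such circles had a median of 0.00 and 6.98% were called lower. Both intronic circles were called lower, ciRNA867 at -1.10 (SE 0.19) and ciRNA1009 at -1.16 (SE 0.24), where all 1116 intronic circles had a median of 0.06 and 3.67% were called lower. The single-exon circRNA2768 averaged 288, 333 and 306 counts at 3, 12 and 24 months, a log2 fold change of -0.07 (SE 0.08, adjusted p = 0.589).

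**Figure D4:**
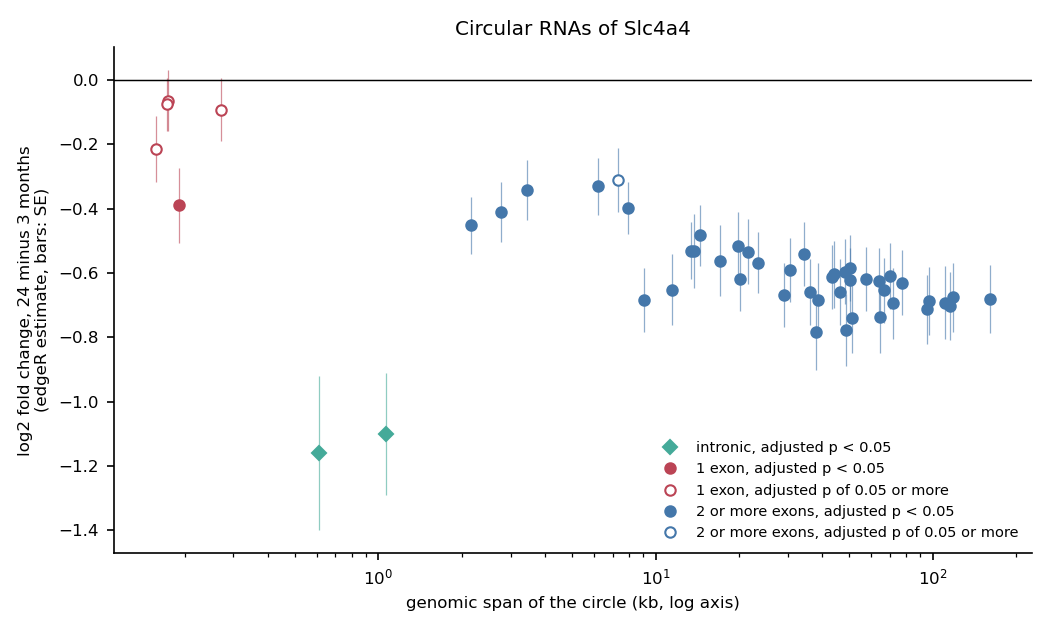
edgeR log2 fold change between 24 and 3 months (vertical axis, bars for the SE) of the 50 circular RNAs of Slc4a4 against the genomic span between their ends in kb (horizontal log axis), filled where the adjusted p was under 0.05. The 5 single-exon circles lie between -0.39 and -0.06, the 43 circles of 2 or more exons have a median of -0.62, and the 2 intronic circles lie lowest.

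The counts of these circles were not independent of each other, and they added up along the gene. In 31 cases where a circle is made of 2 others that share a single exon, the count of the whole was within 1.27% of the sum of the parts less the count of the shared exon in every mouse, with a median over the cases of 0.102%. The counts of the 48 exonic circles could be written as sums over 23 pieces of the gene between circle ends, and this split gave back the counts with a median deviation of 0.0166%. The pieces were 9 exons with 1433 bases in all, 9 introns with 146545 bases and 5 that mixed both. In all 128 host genes where the circles allowed such a check, the median deviation was within 1%. How the counts were made is not given in the sources used here, so a count cannot be told apart from reads of linear or unspliced RNA of the same span, and calls on nested circles are not separate results.

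This split was defined after the values were seen. In its counts, which are not scaled to library size, the introns of Slc4a4 separated the young from the oldest mice and the exons overlapped. The summed count of the 9 intron pieces was 5827, 7416, 5484, 7387 and 4847 at 3 months, 5410, 4395, 5701, 3196 and 2679 at 12 months and 3519, 3215, 3405, 4774 and 4681 at 24 months. Every mouse of 24 months lay below every young mouse. The summed count of the 9 exon pieces was 1091, 1306, 1234, 1318 and 1169 at 3 months, 1355, 1296, 1673, 1048 and 1527 at 12 months and 1448, 1052, 1163, 1275 and 1228 at 24 months, and the ages overlapped. The mean of the unscaled counts was lower at 24 than at 3 months in 9 of 9 intron pieces and in 5 of 9 exon pieces. Pieces of other host genes were not tallied in this way. The longest intron piece, of 38249 bases, averaged 3753, 2642 and 2522 counts at 3, 12 and 24 months.

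The ratio of intron to exon count does not depend on library size. It was 5.34, 5.68, 4.44, 5.61 and 4.15 at 3 months, 3.99, 3.39, 3.41, 3.05 and 1.75 at 12 months and 2.43, 3.06, 2.93, 3.74 and 3.81 at 24 months. All 10 older mice lay below all 5 young mice, although the closest pair was 3.99 and 4.15. The means were 5.04 ± 0.703, 3.12 ± 0.835 and 3.19 ± 0.582 (SD, n = 5 each). The log2 difference was -0.67 (SE 0.15) between 24 and 3 months and -0.73 (SE 0.22) between 12 and 3 months, each with an exact permutation p of 0.00794, and 0.07 (SE 0.24, exact permutation p = 0.794) between 24 and 12 months. Per Gb of aligned sequence, the intron count differed by -0.90 (exact permutation p = 0.00794) and the exon count by -0.23 (exact permutation p = 0.0556) between 24 and 3 months. Between 12 and 3 months the intron count per Gb differed by -0.84 (exact permutation p = 0.00794) and the exon count by -0.11 (exact permutation p = 0.381). Scaled in this way, mice of 12 months had intron counts of 374 to 751, below the 802 to 1468 of the young mice. The same ratio could be formed for 73 host genes, whose median log2 difference was -0.06 between 24 and 3 months and -0.17 between 12 and 3 months. All later mice lay below all young mice in 8.22% of these hosts in the first comparison and in 9.59% in the second, and 4 and 2 hosts, respectively, had a lower difference than Slc4a4. Without any 1 mouse, the difference for Slc4a4 lay between -0.74 and -0.57 for 24 against 3 months and between -0.83 and -0.54 for 12 against 3 months.

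**Figure D5:**
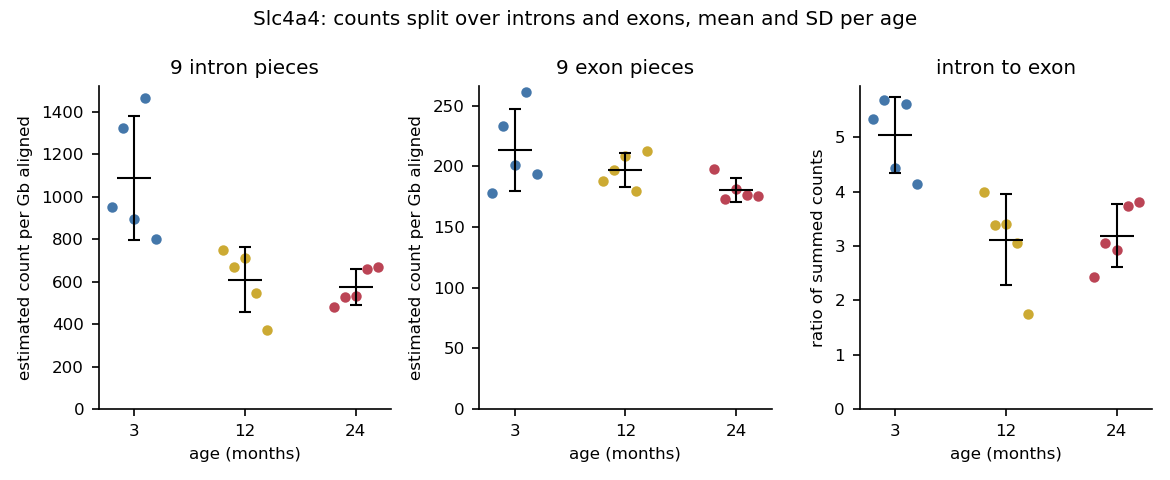
Slc4a4 counts split over 9 intron pieces and 9 exon pieces, as estimated counts per Gb of aligned sequence, and the ratio of the summed intron to the summed exon count (vertical axes, starting at 0) against age in months, with 1 point per mouse, a black dash for the mean of 5 mice and bars for the SD. The ratio lies between 4.15 and 5.68 at 3 months and between 1.75 and 3.99 at the later ages, while the exon counts overlap.

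Other genes of acid-base handling were taken from 5 lists. Of the 21 further intercalated cell genes, limma called 0 at an adjusted p under 0.05 in each comparison. At an unadjusted p under 0.05, 4 were lower and 0 higher both at 24 and at 12 than at 3 months, and 1 was lower and 1 higher at 24 than at 12 months. Over all genes the shares given above were 3.47% lower and 11.4% higher at 24 than at 3 months, 2.9% and 11.4% at 12 than at 3 months, and 6.43% in either direction between 24 and 12 months, and they are the background of the counts that follow too. The median log2 difference of the list was -0.15, -0.15 and -0.04 in these comparisons. Its summed FPKM overlapped between ages (exact permutation p = 0.381 for 24 and p = 0.357 for 12 against 3 months). The genes named next are those with the smallest p and do not stand for the list. Hepacam2, a surface protein of intercalated cells, averaged 7.30 ± 1.16 FPKM at 3 months and 5.43 ± 0.400 FPKM at 24 months (-0.36, adjusted p = 0.131). These 2 ages did not overlap, with every older mouse lower, as in 0.91% of all genes. Mice of 12 months, at 3.59 to 6.42 FPKM, overlapped both. Rhbg, the basolateral ammonia transporter, averaged 6.54 and 4.25 FPKM (-0.51, adjusted p = 0.191), and the proton pump subunit Atp6v1c2 averaged 6.88 and 5.81 FPKM (-0.21, adjusted p = 0.301). At 12 months the proton pump subunit Atp6v0d2 averaged 5.13 FPKM against 9.19 FPKM at 3 months (-0.77, adjusted p = 0.262) and 8.48 FPKM at 24 months, and the oxoglutarate receptor Oxgr1 averaged 4.30 against 7.16 FPKM (-0.67, adjusted p = 0.289).

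Of 12 other carbonic anhydrases tested between 24 and 3 months limma called 0 at an adjusted p under 0.05, with 1 lower and 0 higher at an unadjusted p under 0.05, against 3.47% and 11.4% of all genes, and a median of 0.04. Car12, a membrane-bound one, averaged 34 ± 4.61 FPKM at 3 months, 27.4 ± 1.22 FPKM at 12 months and 27.5 ± 3.60 FPKM at 24 months (-0.29 in both comparisons with 3 months, adjusted p = 0.214 and adjusted p = 0.284). Car15 averaged 13.1 ± 10.9 FPKM at 12 months and 2.24 ± 2.24 FPKM at 3 months (2.0, adjusted p = 0.245). Of 16 other bicarbonate and proton exchangers limma called 0 in each comparison, and at an unadjusted p under 0.05 1 was higher and 0 lower at 24 than at 3 months, and 1 was higher and 1 lower at 12 than at 3 months, where 11.4% of all genes were higher in both comparisons and 3.47% and 2.9% lower. Between 24 and 12 months 2 were higher and 1 lower, where 6.43% of all genes passed in either direction. In that comparison Slc4a7, a sodium-bicarbonate cotransporter, averaged 3.99 against 3.04 FPKM (0.30, adjusted p = 0.726) and the sodium-proton exchanger Slc9a8 16.8 against 21.2 FPKM (-0.34, adjusted p = 0.747).

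The 10 regulators of NHE3 and acid sensors held 4 higher and 1 lower at an unadjusted p under 0.05 between 12 and 3 months, 0 between 24 and 3 months and 2 higher between 24 and 12 months, and limma called 0 of them at an adjusted p under 0.05. Of all genes 11.4% were higher and 2.9% lower between 12 and 3 months, and 6.43% passed in either direction between 24 and 12 months. Their median log2 difference was 0.23 at 12 and 0.17 at 24 against 3 months. Slc9a3r1, the scaffold protein of NHE3, averaged 49.1 ± 12.9 FPKM at 12 months and 31.2 ± 5.54 FPKM at 3 months, with no overlap (0.63, adjusted p = 0.157). The share of all genes with every mouse of 12 months above every young mouse is not given here. Pdzk1, another scaffold, averaged 114 and 82.6 FPKM (0.47, adjusted p = 0.228). The kinase gene Sgk1 averaged 89.2 FPKM at 3 months, 40.7 FPKM at 12 months and 75.5 FPKM at 24 months (-1.16 between 12 and 3 months, adjusted p = 0.139, and 0.89 between 24 and 12 months, adjusted p = 0.745). Chp1, a cofactor of sodium-proton exchangers, averaged 57.5 FPKM at 24 and 50.5 FPKM at 12 months (0.19, adjusted p = 0.774).

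Of the 11 genes of ammonia production and transport 1 passed the adjustment between 24 and 3 months, where 1.22% of all genes did. Slc7a8, a basolateral exchanger of neutral amino acids, averaged 38.0 ± 3.98 FPKM at 3 months and 27.2 ± 2.19 FPKM at 24 months (-0.46, SE 0.09, adjusted p = 0.0391). These 2 ages did not overlap, with every older mouse lower, as in 0.91% of all genes. At 12 months Slc7a8 averaged 33.6 ± 6.27 FPKM. At an unadjusted p under 0.05, 2 of the 11 were lower and 1 higher between 24 and 3 months, 3 were lower and 0 higher between 12 and 3 months, and the list medians were -0.25 and -0.26. Of all genes 3.47% were lower and 11.4% higher in the first comparison and 2.9% and 11.4% in the second. Glud1, which releases ammonia from glutamate, averaged 136, 109 and 110.5 FPKM at 3, 12 and 24 months (-0.31 and -0.29 against 3 months, adjusted p = 0.275 and adjusted p = 0.295). Glul, which consumes ammonia, averaged 165 and 135 FPKM at 3 and 12 months (-0.29, adjusted p = 0.316), and Slc12a2, a basolateral cotransporter, 11.7 and 8.0 FPKM (-0.51, adjusted p = 0.291). The potassium channel Kcnj1 averaged 7.62, 8.06 and 11.2 FPKM at 3, 12 and 24 months (0.50 between 24 and 3 months, adjusted p = 0.167).

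Marker lists of other cell types were summed in the same way. The 7 immune markers summed to 62.3 to 140.5 FPKM at 3 months, 122 to 183 FPKM at 12 months and 94.7 to 178 FPKM at 24 months, with 4 of 7 higher at an unadjusted limma p under 0.05 at 12 and 3 of 7 at 24 than at 3 months, where 11.4% of all genes were higher in both comparisons. The 6 fibroblast and mesangial markers summed to 38.4 to 71.9, 65.6 to 99.5 and 55.7 to 83.8 FPKM, with 5 and 2 higher. The 6 genes listed as medullary and papillary were Fxyd2, Slc14a2, Aqp1, Akr1b3, Slc5a3 and Upk1b. Whether they are confined to these parts of the kidney was not checked. They summed to 672 to 973, 690.2 to 1011 and 952 to 1371 FPKM (exact permutation p = 0.0238 between 24 and 3 months). In each comparison with 3 months 1 of the 6 was lower and 0 higher at an unadjusted limma p under 0.05. Between 24 and 3 months 2 of 5 endothelial markers and 1 of 5 thick ascending limb markers were higher, 1 of 10 proximal tubule markers was higher and 2 were lower, and 0 of 5 distal convoluted tubule and 0 of 5 podocyte markers had an unadjusted limma p under 0.05, where 11.4% of all genes were higher and 3.47% lower. No list had a defining marker at 0 in all mice, and 0 of these markers passed an adjusted limma p of 0.05. Their part in the values of the 9 genes was not tested.

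Few pairs of the 9 genes varied together between mice. Of their 36 pairs, 4 had a permutation p under 0.05 for Pearson r of log2(FPKM + 1) over the 15 mice, and 0 passed an adjusted p of 0.05 by r, by rho, with ages centred or after upper quartile scaling. r ranged from -0.52 to 0.68. Foxi1 and Rhcg had the highest, with an r of 0.68 (permutation p = 0.00581, adjusted p = 0.174), a rho of 0.61 (permutation p = 0.0164), an r of 0.71 without 2 mice and an r of 0.56 with ages centred. Slc26a4 and Slc4a9, both of type B cells, had an r of 0.61 (permutation p = 0.0145, adjusted p = 0.174) and a rho of 0.75 (permutation p = 0.00178, adjusted p = 0.0641), but an r of 0.02 with ages centred. Slc4a1 and Car4 had an r of 0.63 (permutation p = 0.0119, adjusted p = 0.174), a rho of 0.62 (permutation p = 0.0145) and, with ages centred, an r of 0.84 (permutation p = 0.00141, adjusted p = 0.0508).

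Among 13445 genes with a mean of at least 1 FPKM, the genes whose log2(FPKM + 1) ran closest to each of the 9 over the 15 mice were, with their Pearson r, Hspa1a (0.90) and Herpud1 (0.89) for Slc26a4, Agfg2 (0.92) and Slc2a1 (0.89) for Slc4a9, Gatad1 (0.85) and Tab2 (0.83) for Foxi1 and Dpp7 (0.88) and Elovl1 (0.83) for Slc4a1. For Rhcg they were Pla1a (0.88) and Gm37270 (0.87), for Car2 Cdo1 (0.81) and Nploc4 (0.81) and for Car4 Hypk (0.90) and Nelfb (0.88). For Slc4a4 they were Fam234a (0.85) and Selenok (0.81), and for Slc9a3 Flt3l (0.92) and Tle1 (0.90). These are the highest of many values in libraries that share their ages and depths, and they are given as a description. No pair within the 9 reached these values.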

How the data were processed

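Kidney RNA of 15 mice was sequenced after ribosomal RNA removal per the labels, with a TruSeq Stranded Total RNA kit; the study's text describes selection with oligo(dT), so which RNA was sequenced is not settled. The authors trimmed reads with Cutadapt 1.9 and used Ensembl 88; the labels name TopHat and StringTie, the study's methods HISAT2 and StringTie. The linear isoform table deposited by the authors holds FPKM for 129029 transcripts, 36125 of them assembled. Its coverage columns, the mean read depth over each transcript as deposited by the authors, gave aligned bases per mouse. The table of 11929 circular RNAs deposited by the authors holds estimated counts, 83.6% to 94.6% of them not whole and summing to 6974494 to 9889971 per mouse; how they were counted is not given in the sources used here. FPKM carries no read counts, and the depth behind single values was not examined.

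Ages were taken from the age label, since all sample titles begin alike. Gene sums were compared as log2(FPKM + 1) with limma 3.58.1 (R 4.3.3, intensity trend), 1 pair of ages per fit, with genes at 0 in all mice of a pair left out and Benjamini-Hochberg adjustment over all genes; a fold change on this scale understates that of low genes. Single genes, sums and ratios were also tested with a two-sided exact permutation test over 252 assignments. Circle counts were rounded and tested with edgeR 4.0.16 (quasi-likelihood, TMM), with DESeq2 1.42.0 as an alternative. Correlation p values came from permutations and are two-sided; adjusted values are Benjamini-Hochberg. Of these tests, the limma fits of genes and isoforms and the edgeR test of circles were tried on simulated data. The members and lists were chosen with earlier results of these data known. Named were all 9 genes, their isoforms and circles, and from each list the genes with the smallest unadjusted p under 0.05, at most 3 per direction, with a mean of at least 1 FPKM; the 2 genes closest to each of the 9 were named by Pearson r. A result that this rule would name is not reported here. Alternatives were another pseudocount (0.1), an expression filter, annotated transcripts alone, other scalings, a robust fit, all 15 mice in 1 fit and each mouse left out. Sequences are from RefSeq (GRCm38.p6). Other steps ran in Python 3.11.15 with scipy 1.17.1, pandas 2.3.3 and numpy 2.4.6, and figures were drawn with matplotlib 3.10.9.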

Additional observations from a re-analysis of the deposited data

Results flagged for a closer look

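In 2 of 27 groups of 5 mice, a single mouse stood farther from the others than a Dixon test allows, which chance gives in about 1 of 20 groups. Slc4a9 measured 16.9 FPKM in 12M replicate 21, against 11.3 to 12.9 FPKM in the other mice of 12 months. Foxi1 measured 4.66 FPKM in 24M replicate 35, against 0.684 to 1.34 FPKM in the other mice of 24 months.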

How the results depend on the processing

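No paired analysis was possible because the replicate numbers in the labels (5 to 9, 17 to 21 and 31 to 35) are not shared between ages. Over the 153 alternative values of the 9 genes per comparison, 150 kept their direction and side of the threshold between 24 and 3 months, 147 between 12 and 3 months and 144 between 24 and 12 months. With all 15 mice in 1 fit, Slc26a4 passed between 24 and 3 months (adjusted p = 0.0229, log2 difference -0.54). Reversals were small or came with annotated transcripts alone. These gave 0.0134 for Slc4a9 between 24 and 3 months, -0.0124 for Slc4a4 between 12 and 3 months and, between 24 and 12 months, 0.26 for Slc4a9, 0.23 for Rhcg, -0.14 for Car2 and 0.76 for Slc9a3. Upper quartile scaling gave 0.0111 for Slc4a1 between 12 and 3 months, and TPM 0.0196 for Rhcg between 24 and 12 months. With each mouse left out, Slc4a1 ranged from -0.26 to 0.0477 between 24 and 3 months (0.0477 without 3M replicate 9) and from -0.13 to 0.17 between 12 and 3 months, and between 24 and 12 months Rhcg ranged from -0.12 to 0.0138, Car2 from -0.0817 to 0.16 and Foxi1 from -0.0464 to 0.39. The Slc4a4 intron to exon ratio between 24 and 12 months ranged from -0.13 to 0.17 and was -0.0206 without the longest intron piece.

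The number of genes called between 24 and 3 months was 386, and 678 with all 15 mice in 1 fit, 190 with annotated transcripts, 239 with a robust fit and 109 to 411 with a mouse left out. Between 12 and 3 months it was 79, and 299, 27, 24 and 12 to 70 in these settings and 125 after upper quartile scaling. Between 24 and 12 months it was 1, and 3 with a pseudocount of 0.1, 0 with a mean of at least 1 FPKM, 0 with all 15 mice and 1 to 7 with a mouse left out. The 9 genes had 2 to 4, 2 to 4 and 0 to 1 members at an unadjusted p under 0.05 with a mouse left out. Isoforms called numbered 6 between 12 and 3 months and 27 with a pseudocount of 0.1, and 7 between 24 and 12 months, 11 with that pseudocount and 4 with the filter. DESeq2 called 1232 circles between 12 and 3 months, where edgeR called 791, and 419 between 24 and 12 months, where edgeR called 88. Slc4a4 circles called lower between 12 and 3 months numbered 24 when scaled by aligned bases and 1 to 38 with a mouse left out, and between 24 and 3 months 42 to 46; these settings and those of the ratio were chosen after seeing the data. The cause of these shifts was not tested. The depth behind single FPKM values was not used in the tests, so precision rests on 5 mice per age.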
